A study of Cymbopogon flexuosus and Cymbopogon winterianus with 4 samples.

Results

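Leaves of citronella (Cymbopogon winterianus) and lemongrass (Cymbopogon flexuosus) were compared. Of 42250 citronella contigs, 132 had 40 or more counts in both citronella libraries and none in either lemongrass library. A contig is a stretch of sequence put together from overlapping reads, and it is taken here as a leaf transcript or a piece of one. The 132 contigs were chosen by their raw counts in the comparison of the species. Each had 0 counts in both lemongrass libraries and 40 or more counts in both citronella libraries. Their counts are therefore given as a description, without a test.

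The series holds 2 leaf libraries of citronella and 2 of lemongrass. The plants were accessions cultivated in field plots in southern Brazil, kept under the same normal conditions in both species. Whether separate plants gave the libraries of 1 species is not stated in the labels, and the spread between them may be technical. Counts on citronella contigs totalled 6222870 and 5132053 in citronella replicates 1 and 2, and 5540867 and 6369924 in lemongrass replicates 1 and 2. The citronella pair, in which the contigs were found, held 11354923 counts in all, against 11910791 in the lemongrass pair. These totals hold only counts placed on citronella contigs and are not sequencing depth. The library sizes given by TMM, the scaling method of edgeR, ran the other way, at 13246748 for the citronella pair against 10269224 for the lemongrass pair. Leaf markers could not be checked, because the files pair no contig with a gene name.

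Both species are grasses whose leaves store scented oils made mostly of monoterpenes. Lemongrass oil is known for citral, an aldehyde formed by oxidation of geraniol, and citronella oil for citronellal, citronellol and geraniol. Plants make geraniol from geranyl diphosphate, which comes from isoprenoid precursors built in the plastid. None of the 132 contigs could be assigned to this pathway or to any other, and those named are given by their ID. Sequences of the contigs were not used here.

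The 132 contigs were 0.312% of all citronella contigs. Of the 42250 contigs, 2838 (6.72%) had 0 counts in both lemongrass libraries, and most of these were rare in citronella too, with 2706 under 40 counts in at least 1 citronella library. Among the 14981 contigs with 40 or more counts in both citronella libraries, the 132 made up 0.881%. This is the background share of the choice itself, and nothing is read from it. The mirror pattern, 0 counts in both citronella libraries and at least 40 in each lemongrass library, was found in 0 citronella contigs. How these contigs were made is not stated, and whether the way they were built limits that pattern was not tested. On lemongrass contigs, which form a separate set, that pattern was found in 1 of the 14856 contigs that reached 40 counts in each lemongrass library. The contig sets were not matched to each other, and the difference between these shares was not tested.

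A count of 0 does not mean that a transcript was absent. It leaves room for 3 counts, or 0.541 CPM in lemongrass replicate 1 and 0.471 CPM in replicate 2, where CPM is a contig's share of the counts of its library, scaled to a total of 1000000. Over the lemongrass pair the limit is 0.252 CPM. Every fold below is a lower bound, computed from the summed citronella counts against a floor of 3 counts over the lemongrass pair, both divided by their totals. These limits cover counting error only, since reads copied by PCR are not independent molecules. In whole leaves, fewer cells of a type and less RNA per cell cannot be told apart. A lower level in lemongrass leaves and a poorer placement of lemongrass reads on citronella sequence cannot be told apart either.

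The lower bounds ran from 28.7-fold to 426-fold, with a median of 49.8-fold and quartiles of 40.8-fold and 81.5-fold. At least 100-fold was reached by 18 contigs and at least 200-fold by 8. The other 114 lay between 28.7-fold and 99.3-fold. By these totals, the lemongrass pair would have held, at the level seen in citronella, 86 counts for the rarest of the contigs and 1278 for the most abundant, with a median of 149. With the TMM library sizes in place of column totals, the median bound was 36.8-fold, and the range was 21.2-fold to 315-fold. Because the bound rises with the citronella count alone, its order among the contigs is their order of abundance.

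Of the 132 contigs, 5 stood above the rest in citronella. g.contigcw5972 had 741 and 477 counts in citronella replicates 1 and 2 and 0 in both lemongrass libraries, a citronella mean of 106 ± 18.5 CPM (SD, n = 2) and a fold of at least 426. g.contigcw5271 had 695 and 515 counts in citronella and 0 in lemongrass, at 106 ± 8.02 CPM in citronella and at least 423-fold higher there. g.contigcw6407 had 733 and 435 counts in citronella and 0 in lemongrass, at 101 ± 23.4 CPM and at least 408-fold. Both citronella libraries were above the lemongrass limits for each of these 3 contigs, as the choice requires of all 132.

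g.contigcw6720 had 677 and 489 counts in citronella and 0 in lemongrass, at 102 ± 9.55 CPM and at least 408-fold. g.contigcw8620 had 620 and 533 counts in citronella and 0 in lemongrass, at 102 ± 2.99 CPM and at least 403-fold. The summed citronella counts of the 5 contigs lay between 1153 and 1218, a span of 1.06-fold. A gap of 1.48-fold separated them from the next contig, the widest step between contigs adjacent in this order. Their mean levels of 101 to 106 CPM differed by less than the SD of 4 of them. Which gene each comes from is not given in the files, and whether any of them are pieces of 1 transcript was not tested.

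**Figure D1:**
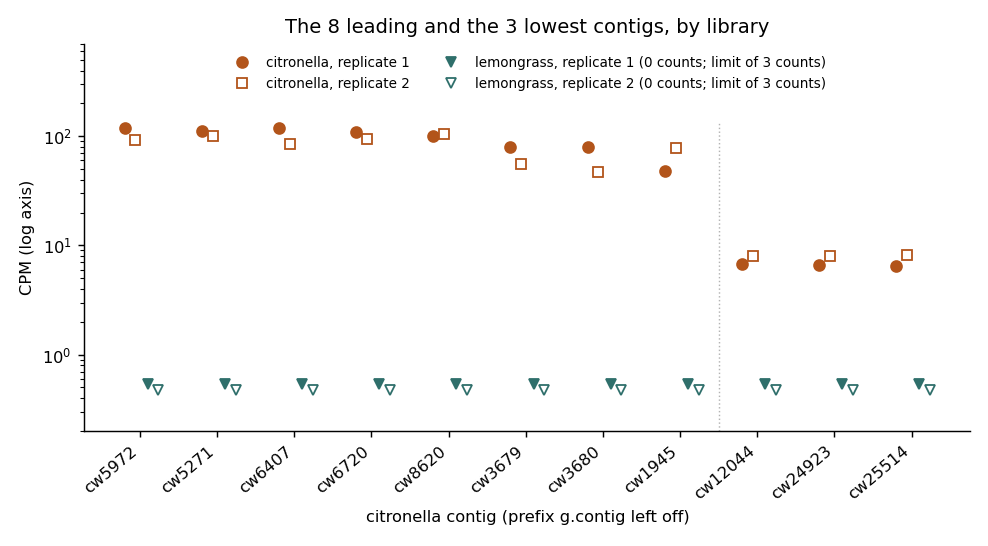
Levels in each library of the 8 contigs with the highest and the 3 with the lowest lower bound, in CPM on a log axis. Circles and squares are the citronella libraries, and triangles mark the limit of 3 counts that 0 counts allow in each lemongrass library. The citronella points lie between 6.43 and 119 CPM, all above the lemongrass limits of 0.541 and 0.471 CPM, as the choice requires.

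The sixth contig in order was g.contigcw3679, with 497 and 283 counts in citronella and 0 in lemongrass, a citronella mean of 67.5 ± 17.5 CPM (SD, n = 2) and a fold of at least 273. Its neighbour by ID number, g.contigcw3680, came next, with 495 and 240 counts in citronella and 0 in lemongrass, a citronella mean of 63.2 ± 23.2 CPM and at least 257-fold. The counts of this pair were nearly the same in replicate 1 and close in replicate 2. How reads that match more than 1 contig were counted is not stated. If the contigs share sequence, their counts are uncertain to that extent.

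A second pair of consecutive ID numbers was seen among the 132 contigs, and it is named here after its values were seen. g.contigcw1945 had 298 and 401 counts in citronella and 0 in lemongrass, a citronella mean of 63 ± 21.4 CPM (SD, n = 2) and at least 244-fold. g.contigcw1946 had 76 and 65 counts in citronella and 0 in lemongrass, at 12.4 ± 0.32 CPM and at least 49.3-fold. Unlike the first pair, these contigs differed several-fold in level. Of the 8 leading contigs, 2 were lower by CPM in citronella replicate 1 than in replicate 2, g.contigcw1945 and g.contigcw8620, and 5 were lower with TMM scaling.

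The lower end of the choice was set by the minimum of 40 counts. g.contigcw25514 had 40 and 42 counts in citronella and 0 in lemongrass, at 7.31 ± 1.24 CPM in citronella and at least 28.7-fold. g.contigcw24923 had 41 and 41 counts in citronella and 0 in lemongrass, also at least 28.7-fold. g.contigcw12044 had 42 and 41 counts in citronella and 0 in lemongrass, at least 29-fold. With their counting error taken in, the bound for g.contigcw25514 was 22.8-fold at the low end of the exact 95% interval of its count.

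Contigs close to the limits of the choice looked much like those inside it. With 0 lemongrass counts, 43 of the 132 contigs had 40 to 49 counts in their lower citronella library, and 92 contigs just outside had 30 to 39. g.contigcw11268, just outside, had 73 and 39 counts in citronella and 0 in lemongrass. On the lemongrass side, 147 contigs with 40 or more counts in both citronella libraries had exactly 1 lemongrass count. The 2 of these with the most citronella counts were g.contigcw4749 and g.contigcw8207.

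g.contigcw4749 had 558 and 608 counts in citronella and 0 and 1 in lemongrass. Its citronella mean of 104 ± 20.4 CPM (SD, n = 2) lay within the range of the 5 leading contigs, and its counts gave a ratio of 1223 with an exact 95% interval of 219 to 48350. g.contigcw8207 had 452 and 360 counts in citronella and 1 and 0 in lemongrass, a ratio of 852 (152 to 33683). These intervals include values below the lower bounds of the leading contigs, so these 2 contigs were not separated from them by this measure.

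The number of contigs changed little from 0 lemongrass counts to 3. Among contigs with 40 or more counts in both citronella libraries, 132 had 0 lemongrass counts over the pair, 147 had 1, 126 had 2 and 114 had 3. A further 494 had 4 to 10, and 10906 of the 14981 (72.8%) had more than 100. The 132 contigs thus lay at the end of a range of low lemongrass counts, with no gap between them and the contigs with 1 to 3. They were also the rarest of these classes in citronella by the median of the summed counts, at 142.5, against 161 with 1 lemongrass count, 182 with 2 and 208.5 with 3. The most abundant contig with 1 to 3 lemongrass counts, g.contigcw1853, had 2008 and 2395 counts in citronella and 0 and 3 in lemongrass, a ratio of 1540 (526 to 7468). It was chosen for mention after its values were seen, and its citronella count is above that of any of the 132.

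The share of contigs without lemongrass counts was smaller among more abundant contigs. It was 1.86% (91 of 4905) where the lower citronella count was 40 to 79 and 0.824% (31 of 3760) at 80 to 159. It was 0.182% (5 of 2745) at 160 to 319 and 0.244% (5 of 2049) at 320 to 639. The last 2 shares did not differ beyond their exact 95% intervals of 0.0592% to 0.425% and 0.0793% to 0.569%. At 640 or more it was 0 of 1522 contigs, which allows a share of up to 0.197% by the limit of 3 and of up to 0.242% by the exact 95% interval. Contigs are not independent of each other, which the intervals leave out of account.

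**Figure D2:**
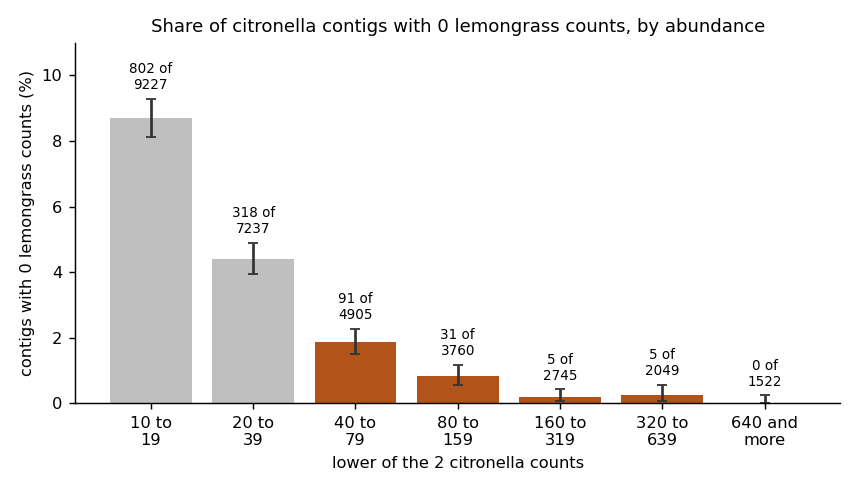
Percent of citronella contigs with 0 counts in both lemongrass libraries, by the lower of the citronella counts. Error bars are exact 95% binomial intervals, brown bars hold the 132 contigs and grey bars lie below the minimum of 40. The share is 8.69% at 10 to 19 counts and 0 of 1522 contigs at 640 or more.

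The choice used both lemongrass libraries, so each was also left out of it in turn, and the counts of the library left out were then read. Contigs at 0 in that library are the 132 by definition, so it gives no independent support for them. With 0 counts asked of lemongrass replicate 1 alone, 326 contigs had 40 or more counts in both citronella libraries. In lemongrass replicate 2, 132 of them (40.5%) had 0 counts, 84 had 1, 49 had 2, 21 had 3 and 40 had more, up to 19. With 0 counts asked of replicate 2 alone, 259 contigs were found, and replicate 1 held 0 counts for 132 of them (51.0%) and at most 7 for the rest.

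The library left out was thus often above 0, but low. At the level seen in citronella, these contigs would have had at least 46 counts in lemongrass replicate 2, and at least 40 in replicate 1. Not 1 of the 326 or 259 contigs reached its citronella level, and the closest were 3.45-fold and 8.23-fold below it. That level comes from citronella counts that the choice asked to be 40 or more, and 0 counts were asked of the other lemongrass library. Low counts in the library left out are thus favoured by the choice itself and give no support. At 3 counts or fewer were 87.7% of the 326 and 95% of the 259. Among the other contigs with 40 or more counts in both citronella libraries, 0.867% of the 14655 with counts in lemongrass replicate 1 had 0 in replicate 2. Of the 14722 with counts in replicate 2, 1.32% had 0 in replicate 1. These others were not matched in lemongrass level to the 326 and 259 contigs, so nothing is read from the contrast. Contigs of 1 library are not replicates of a species, so no test is given.

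**Figure D3:**
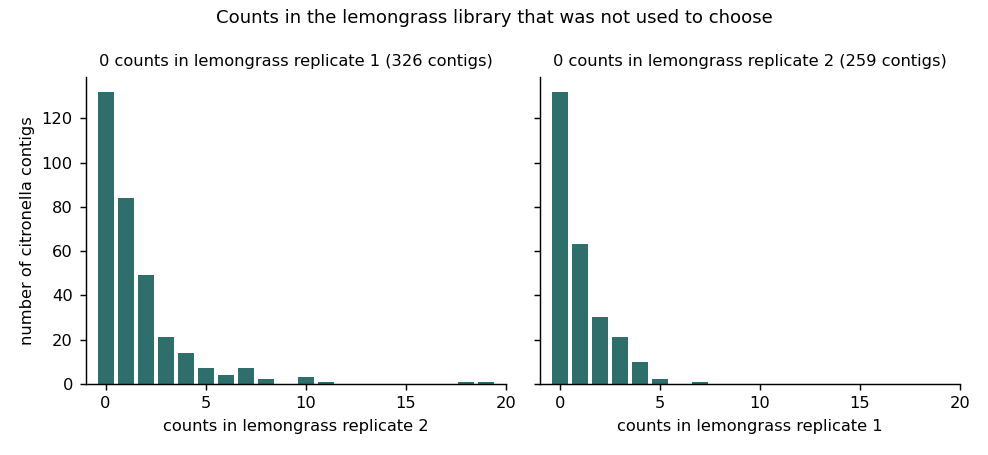
Number of citronella contigs by their count in the lemongrass library that was not used to choose them, with 0 counts asked of replicate 1 on the left and of replicate 2 on the right. All had 40 or more counts in both citronella libraries. In each panel the same 132 contigs stand at 0 by definition, and the highest counts are 19 on the left and 7 on the right.

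In citronella leaves the 132 contigs ranked between 2103 and 17167 of the 42250 contigs by mean CPM, with the lower end set by the minimum of 40 counts. They took 0.256% ± 0.0303 of the citronella counts (SD, n = 2), with 17283 counts in replicate 1 (0.278%, exact 95% interval 0.274% to 0.282%) and 12052 in replicate 2 (0.235%, 0.231% to 0.239%). The 5 leading contigs held 20.2% of these counts and the leading 10 held 31.1%. In replicate 1 the counts ran from 40 to 741 with a median of 87.5, and in replicate 2 from 40 to 533 with a median of 59. The median of the mean levels was 12.5 CPM, against 5.1 CPM over all citronella contigs and 29.5 CPM over the others with 40 or more counts in both citronella libraries. By that rank, 0 of the 132 were in the leading 1000, 8 in the leading 5000 and 41 in the leading 10000. These ranks are not corrected for contig length.

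The citronella libraries ranked the 132 contigs alike, with Spearman's rho = 0.769 and Pearson's r = 0.901 on log2 counts across the 132 contigs. The minimum of 40 in both libraries limits the range of these values, and contigs are not independent. By CPM, 92 of the contigs (69.7%) were higher in replicate 1 and 40 in replicate 2. Of the 14849 other contigs with 40 or more counts in both, 79.1% were higher in replicate 1. With TMM scaling the split of the 132 turned to 43 and 89, and that of the others was not counted. By CPM, 4 of the 132 (3.03%) were more than 2-fold apart, all higher in replicate 1, against 4.28% of the others. With TMM scaling 3 (2.27%) were that far apart, all lower in replicate 1, against 3.83% of the others.

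The contigs that differed most towards replicate 1 were g.contigcw17821, with 100 and 40 counts in citronella replicates 1 and 2, and g.contigcw11258, with 115 and 46. Each had a log2 CPM ratio of 1.04 for replicate 1 over replicate 2. In the other direction, g.contigcw14928 had 56 and 88 counts, a log2 ratio of -0.93, and g.contigcw16491 had 53 and 74 counts, a log2 ratio of -0.76. All 4 had 0 counts in lemongrass. TMM scaling shifts each of these log2 ratios by -0.38.

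**Figure D4:**
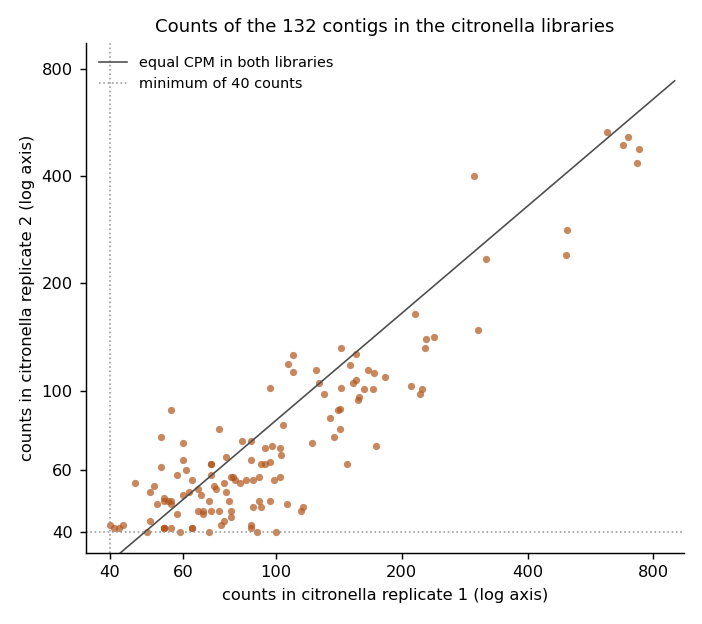
Counts of the 132 contigs in citronella replicate 1 and replicate 2, on log axes, 1 point for each contig. The line marks equal CPM and the dotted lines the minimum of 40 counts. Of the points, 92 (69.7%) lie on the replicate 1 side of the line, where TMM scaling would leave 43. Of other contigs with 40 or more counts in both libraries, not shown, 79.1% were higher in replicate 1 by CPM. The leading 5 stand apart at the top right.

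Abundant contigs are compressed in citronella replicate 1. Its highest count on citronella contigs was 5782, against 33170 in replicate 2, and on lemongrass contigs the highest counts were 54631 and 26256. Among contigs with 6400 or more counts in replicate 2, the median log2 CPM ratio of replicate 1 over replicate 2 was -1.85 (24 contigs), and at 600 to 6399 counts it was -0.13 (1692 contigs). None of the 132 contigs reached that range, as their highest count in replicate 2 was 533. The median ratio was above 0 in each class below 600 counts, the range that holds the 132 contigs, and their levels in replicate 1 carry that doubt. From replicate 2 alone, their median lower bound was 45.6-fold, and from replicate 1 alone 55.8-fold.

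Over the 132 contigs the median log2 ratio was 0.22, and over the 14849 others 0.32. With TMM scaling both medians turned negative, at -0.16 for the 132 contigs and -0.06 for the others, so the direction between the citronella libraries depends on the scaling. The order of the medians does not, since a scaling shifts both alike. At matched abundance the 132 contigs had the lower median in each of the 5 classes that hold them. With 40 to 59 counts in replicate 2 it was 0.22 (66 contigs) against 0.42 for others, and with 60 to 79 counts 0.17 (24 contigs) against 0.46. With 80 to 119 counts it was 0.27 (25 contigs) against 0.43, with 120 to 199 counts 0.27 (8 contigs) against 0.42, and with 200 to 599 counts 0.19 (9 contigs) against 0.28. The interquartile ranges overlapped in every class, and the difference was not tested, since the counts of both libraries entered the choice.

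**Figure D5:**
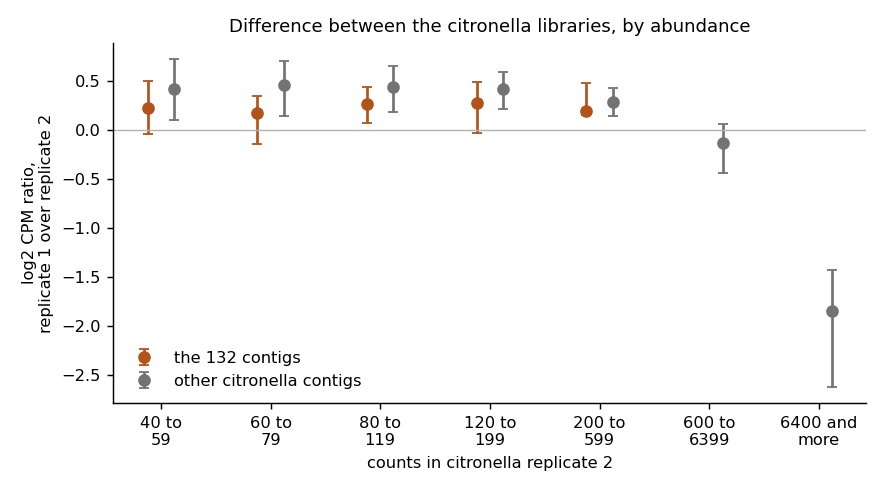
Median log2 ratio of CPM in citronella replicate 1 over replicate 2, by the count in replicate 2, for the 132 contigs (brown) and for other citronella contigs with 40 or more counts in replicate 1 (grey). Bars span the quartiles. The medians of the 132 contigs lie between 0.17 and 0.27, and those of the other contigs between 0.28 and 0.46 in the same classes and at -1.85 in the most abundant one.

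The number in a contig's ID was not used in the choice. What it stands for is not stated in the sources used, but levels moved with it. The median count in citronella replicate 2 was 44 for IDs 1 to 2500, 413 for IDs 5001 to 7500 and 18 for IDs 22501 to 25000. The 132 contigs ran from ID 472 to ID 30342, with a median of 13089. Of the contigs with 40 or more counts in both citronella libraries, they made up 1.15% (14 of 1221) in IDs 1 to 2500, 0.321% (8 of 2489) in IDs 5001 to 7500, 1.52% (19 of 1250) in IDs 15001 to 17500 and 3.33% (8 of 240) in IDs 22501 to 25000. The block with the lowest of these shares was also the one of highest abundance. Contigs whose lower citronella count was 40 to 79 were taken in wider blocks, of 5000 IDs. Their shares were 1.99% in IDs 1 to 5000, 1.08% in IDs 5001 to 10000 and 1.90% in IDs 10001 to 15000. They were 1.80% in IDs 15001 to 20000 and 2.37% (15 of 633) in IDs 20001 to 25000. Wider blocks even out shares by themselves, so these shares are not compared with those above.

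The contigs were mostly single in this order. Apart from the 2 pairs above, no contig of the 132 had another of them next to it by ID number. Of the 264 contigs next to one of the 132, 9 (3.41%) had 0 lemongrass counts, against 6.72% of all citronella contigs, and 4 of the 9 were the members of the 2 pairs. Of the neighbours, 182 (68.9%) reached 10 counts in each lemongrass library, against 52.5% of all citronella contigs. Both neighbours were at that level for 67 of the 132 contigs. The neighbours had a median of 145 counts over the citronella pair and 79.5 over the lemongrass pair. The citronella median over all contigs was 59, so the neighbours were more abundant than most. Among the 158 neighbours with 40 or more counts in both citronella libraries, 4 (2.53%) had 0 lemongrass counts, against 0.881% of all such contigs. This order is opposite to that of the shares over all neighbours, but it rests on 4 contigs and was not tested. These 4 are again the members of the 2 pairs, and any such neighbour at 0 is one of the 132 by the choice itself.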

How the data were processed

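Leaf RNA of both species was prepared with a TruSeq kit for paired-end reading, per the labels' protocols. The authors deposited 2 tables of raw counts per contig, with a column for each of 4 libraries per the file headers, and all columns were matched to samples by library name. HISAT2, HTSeq, SAMtools, edgeR, Trimmomatic 0.32 and FastQC 0.11.2 are listed in the submitters' processing notes without their roles. The reference and the counting of reads matching several contigs are not stated in the sources used, nor is the origin of the contigs.

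The 132 contigs and the rules for naming them were chosen with earlier results of these data known. Since the counts of both species chose them, no test across contigs was run and no p-value is given. The named contigs were the 6 with the highest and the 3 with the lowest lower bound, 2 at each end of the ratio between the citronella libraries, the longest run of consecutive ID numbers, and 3 just outside the choice. Abundance classes and ID blocks of 2500 and 5000 were set after seeing the data. Lists of scent pathway and leaf marker genes could not be matched, as contigs carry no names. Counts and CPM were handled in Python 3.11.15 with pandas 2.3.3 and scipy 1.17.1. TMM sizes came from edgeR 4.0.16 (contigs kept by filterByExpr) and size factors from DESeq2 1.42.0, in R 4.3.3. The code for the choice and the bounds was run on simulated counts with 200 planted contigs. All other simulated contigs had the same mean in every library. The run therefore checks the code only and says nothing about the 132 contigs.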

Additional observations from a re-analysis of the deposited data

How the results depend on the processing

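The number of contigs followed the limits of the choice. It was 450 with a citronella minimum of 20 counts, 41 with 80, and 519 with up to 3 lemongrass counts allowed over the pair. With 1 library left out it ranged from 144 (without citronella replicate 1) to 326 (without lemongrass replicate 2), and it was 316 without citronella replicate 2 and 259 without lemongrass replicate 1.

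The median lower bound was 36.8-fold with TMM sizes, 33.6-fold with DESeq2 size factors, 24.9-fold with a floor of 3 counts in each lemongrass library, and 27.3-fold and 97.9-fold with minimums of 20 and 80. With 1 library left out it ranged from 25.6-fold to 44.1-fold, lowest without lemongrass replicate 2, and it was 29.0-fold without lemongrass replicate 1. A bound falls by construction when a lemongrass library is left out, since the total behind the floor falls.

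The share of citronella counts was 0.448% and 0.153% with minimums of 20 and 80, and 0.205% without the 5 leading contigs, an alternative added after seeing the data. With 1 library left out it ranged from 0.246% to 0.681%. The share without lemongrass counts was 2.03% and 0.407% with minimums of 20 and 80, 3.46% with up to 3 lemongrass counts, and 0.941% to 2.18% with 1 library left out.

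The median log2 ratio of the citronella libraries turned to -0.16 with TMM and -0.29 with DESeq2. The share at 0 in the unused lemongrass library, 40.5%, was 51.0% when replicate 2 chose, 47.7% with a minimum of 20, and 87.7% at up to 3 counts. Of the 45 alternatives, 29 moved their value and 2 reversed its direction. The remaining 14 moved it by less than its spread or interval, or a count by less than 1.5 times. These include the ones without citronella replicate 1, which are part of the ranges above. No paired analysis was possible because no result comes from a test. At 0 counts, the total placed on citronella contigs limits what can be seen to levels above 0.252 CPM over the lemongrass pair.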
